A study of Homo sapiens with 24 samples.

Results

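The genes described here are the cyclins that act in the G1 phase of the cell cycle, the kinases they activate and 2 inhibitors of those kinases: CCND1, CCND2 and CCND3 (cyclins D1, D2 and D3), CDK4, CDK6, CCNE1 and CCNE2 (cyclins E1 and E2), CDK2, CDKN1B (p27) and CDKN2C (p18). They were taken by gene symbol, with earlier results of these data known, and are 10 of the 58174 genes listed in each of the 4 deposited tables. The study lowered IGF2BP1, an RNA-binding protein of embryonic tissue and many tumours that stabilises target mRNAs, and measured total RNA by sequencing after depletion of ribosomal RNA. A549 is a lung cancer line, ES2 an ovarian cancer line, MV3 a melanoma line and PANC1 a pancreatic cancer line. Each line received control siRNA (siC) in one arm and pooled siRNAs specific for IGF2BP1 (siI1) in the other, with no other allele or agent, and were harvested 72 h later, or 96 h later in PANC1. The 8 groups had 3 libraries each, which the study names biological replicates, so 24 libraries were used. Both arms of a line carry the same tumour genome, and an siRNA pool lowers but does not remove its target.

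D-type cyclins are made in response to growth signals and activate CDK4 and CDK6, which begin to phosphorylate the retinoblastoma protein. This releases E2F transcription factors, which switch on genes of DNA replication, the E-type cyclins among them. Cyclin E with CDK2 then completes the phosphorylation of the retinoblastoma protein and starts S phase. CDKN2C, an INK4 protein, binds CDK4 and CDK6 alone and keeps them from their cyclins, whereas CDKN1B, a CIP/KIP protein, binds assembled cyclin-CDK complexes and is best known as an inhibitor of cyclin E-CDK2. The 3 genes of the D type, the pair CDK4 and CDK6 and the pair CCNE1 and CCNE2 can largely stand in for one another, and tumours differ in which copy they use.

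IGF2BP1 binds 3'UTRs, and G1 cyclins and their kinases are textbook targets of the let-7, miR-15/16 and miR-34 families of miRNAs. The reference 3'UTRs were therefore searched for letters opposite the seed of each family, which is bases 2 to 8 of the mature miRNA and is in capitals in the RefSeq sequences below. The miRNAs themselves were not analysed here.
hsa-let-7a-5p: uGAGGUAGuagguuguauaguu
hsa-miR-16-5p: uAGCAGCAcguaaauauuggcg
hsa-miR-34a-5p: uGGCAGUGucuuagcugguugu
A match was the 7 bases opposite bases 2 to 8, or the 6 bases opposite bases 2 to 7 followed by an A, read on the transcript strand. For let-7 these letters are CTACCTC or, by the second rule, TACCTCA. For miR-15/16 they are TGCTGCT or, by the second rule, GCTGCTA. For miR-34 they are CACTGCC or, by the second rule, ACTGCCA. The longest 3'UTR of each gene in GENCODE v44 was used. A miR-15/16 match was present in 7 of the 10 members and at least 2 in 5 (CCND1, CCND2, CCND3, CDK6 and CCNE1), beside 30.9% and 10.3% of the 9587 protein-coding genes tested in all lines that have a 3'UTR. A let-7 match was present in 3 members (CCND1, CCND2 and CDK6, beside 19.4% of all genes) and a miR-34 match in 5 (CCND1, CCND3, CDK6, CCNE2 and CDKN1B, beside 24.7%). CDK2 and CDKN2C had none of the 3. The 3'UTRs differed in length, from 364 bases in CDKN2C and 535 in CCNE1 to 10219 in CDK6, and a long 3'UTR holds more matches of any kind. Members on which the results below turn are shown by 30 bases around a match, which is in capitals (hg38, sequence as in the transcript), so that the reader can see which of them share letters.
CCNE1, miR-15/16, first match (chr19:29824012-29824041, plus strand): gcgtgctcccgaTGCTGCTAtggaaggtgc
CCNE1, miR-15/16, second match (chr19:29824250-29824279, plus strand): ctgttttgtaagTGCTGCTAtatctatcca
CCND1, miR-15/16 (chr11:69653303-69653332, plus strand): tttcacattgttTGCTGCTAttggaggatc
CCND1, let-7 (chr11:69653484-69653513, plus strand): gctgtttcacaaTACCTCAtgcttcactta
CCND3, miR-15/16 (chr6:41935309-41935338, minus strand): gattgacagcttTGCTGCTgaaggctcatt
CDK6, let-7 (chr7:92614269-92614298, minus strand): gtttagggagtgTACCTCAgatagatttta
CDK6, miR-34 (chr7:92614035-92614064, minus strand): ctttctgccacaCACTGCCttgttggcaaa
CDKN1B, miR-34 (chr12:12721650-12721679, plus strand): gaaacctatcctCACTGCCctccccagtct
Both CCNE1 matches and the CCND1 match to miR-15/16 carried all 8 letters TGCTGCTA, and the CCND3 match carried 7 of them. The match of CDK4 lies in the 3'UTR of transcript CDK4-202, which crosses a splice junction there, and is not shown. Other CDK4 transcripts were not searched, so the match may not lie in their 3'UTRs. A match is a description of the letters and not evidence that a miRNA acts. RefSeq promoters, from 250 bases before to 50 after a transcript start, were searched for 6 members (CCND3, CDK4, CDK6, CCNE1, CDKN1B and CDKN2C). None of these 11 promoters held the E2F letters TTTCCCGC, TTTCGCGC, TTTGCCGC or TTTGGCGC on either strand, which were present in 3.31% of 35116 promoters. Only these exact letters were searched, so E2F sites with other letters could be missed. No promoter of CCND1, CCND2, CCNE2 or CDK2 was searched.

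IGF2BP1 itself was lower in every siI1 library. In A549 it stood at 39.8, 39.8 and 39.6 FPKM (fragments scaled to the listed gene length and library size) in siC and at 15.3, 16.4 and 15.2 in siI1. ES2 libraries had 13.1, 14.0 and 12.1 against 4.22, 4.19 and 4.03. For MV3 the values were 9.09, 9.64 and 9.06 against 3.02, 2.95 and 2.77. PANC1 libraries had 11.2, 11.3 and 10.98 against 2.75, 2.87 and 2.71. The siI1 mean was 0.394, 0.317, 0.314 and 0.249 of the siC mean in these lines. Libraries held from 3105215 to 20082702 reads assigned to genes, fewest in A549 and most in MV3. The epithelial markers EPCAM, CDH1, KRT8, KRT18 and KRT19 summed to at least 759 FPKM in A549 and 1339 in PANC1 controls. EPCAM averaged 1.17 FPKM in A549 controls, with 7 to 18 reads in the A549 libraries. The mesenchymal markers summed to 341 to 352 FPKM in A549 and 540 to 572 in PANC1 controls, so both kinds were present. The lung markers NKX2-1 and SFTPB were at 0 in the A549 controls. PAX8, WT1 and MUC16 summed to at most 0.397 FPKM in ES2, and SOX10, MITF, PMEL, MLANA and TYR to at most 0.358 FPKM in MV3. These tissue markers thus did not show the tissue of origin of A549, ES2 and MV3. In the tests described below, 4 of 5 epithelial markers fell in A549, and 2 of 5 fell and 2 rose in PANC1 on the deposited scale. KRT8 rose in ES2 and MV3. Of the mesenchymal markers VIM, FN1 and CDH2, 2 fell in A549, 2 fell and 1 rose in ES2, 1 fell in MV3 and 1 rose in PANC1 on that scale. Of all genes, 7.83%, 13.0%, 19.5% and 13.4% fell in A549, ES2, MV3 and PANC1, and 5.93%, 10.5%, 16.3% and 11.3% rose. Leukocyte markers summed to at most 2.99 FPKM in A549 controls, all from CD14, and to at most 0.498 elsewhere. Their part in the results was not tested. In bulk RNA, fewer cells that express a gene and less of its RNA per cell cannot be told apart.

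In control cells CCND1 was the most abundant member in all 4 lines and CDK4 came next (plot of FPKM by library). In A549, ES2, MV3 and PANC1, CCND1 averaged 71.7 ± 2.13, 214 ± 10.6, 109.5 ± 2.63 and 47.6 ± 1.72 FPKM (SD, n = 3), and CDK4 52.9 ± 3.65, 66.9 ± 2.37, 54.4 ± 3.74 and 42.2 ± 3.58. The libraries of the 2 genes did not overlap in any line. Below them the order differed. In A549 the order was CCND3 (44.1 ± 2.99 FPKM), CDK6 (27.8 ± 2.54), CCNE1 (18.8 ± 0.884), CDKN1B, CDK2, CDKN2C and CCNE2 (2.52 ± 0.229), of which CDKN1B and CDK2 overlapped. In ES2 it was CDK6, CDK2, CDKN1B and then CCNE2, CCND3, CCNE1 and CDKN2C, and those last 4 overlapped with their neighbours at means of 8.58 to 7.36 FPKM. In MV3 the inhibitors came next, with CDKN1B at 24.5 ± 0.777 and CDKN2C at 22.5 ± 2.25 FPKM, and overlapped with each other, ahead of CDK6, CDK2, CCNE2, CCND3, CCNE1 and CCND2 (0.875 ± 0.0698), which were separate. In PANC1, CDK2, CDKN2C and CDKN1B overlapped at 14.7, 14.1 and 12.5 FPKM and stood above CDK6 (9.80 ± 0.340), CCNE1, CCNE2 and CCND3 (5.31 ± 0.166), which were separate. CCND2 was close to silent: no read was assigned to it in any A549 or ES2 library, where 3 reads would equal 0.0496 to 0.130 FPKM, and at most 8 reads in a PANC1 library. The tables were normalised separately, so levels were not tested between lines. Orders, shares and ratios between genes rest on the listed gene length (5802 bases for CCND3, 3168 for CDK4). Lengths of the transcripts expressed were not measured, and other lengths would shift these comparisons between genes.

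**Figure D1:**
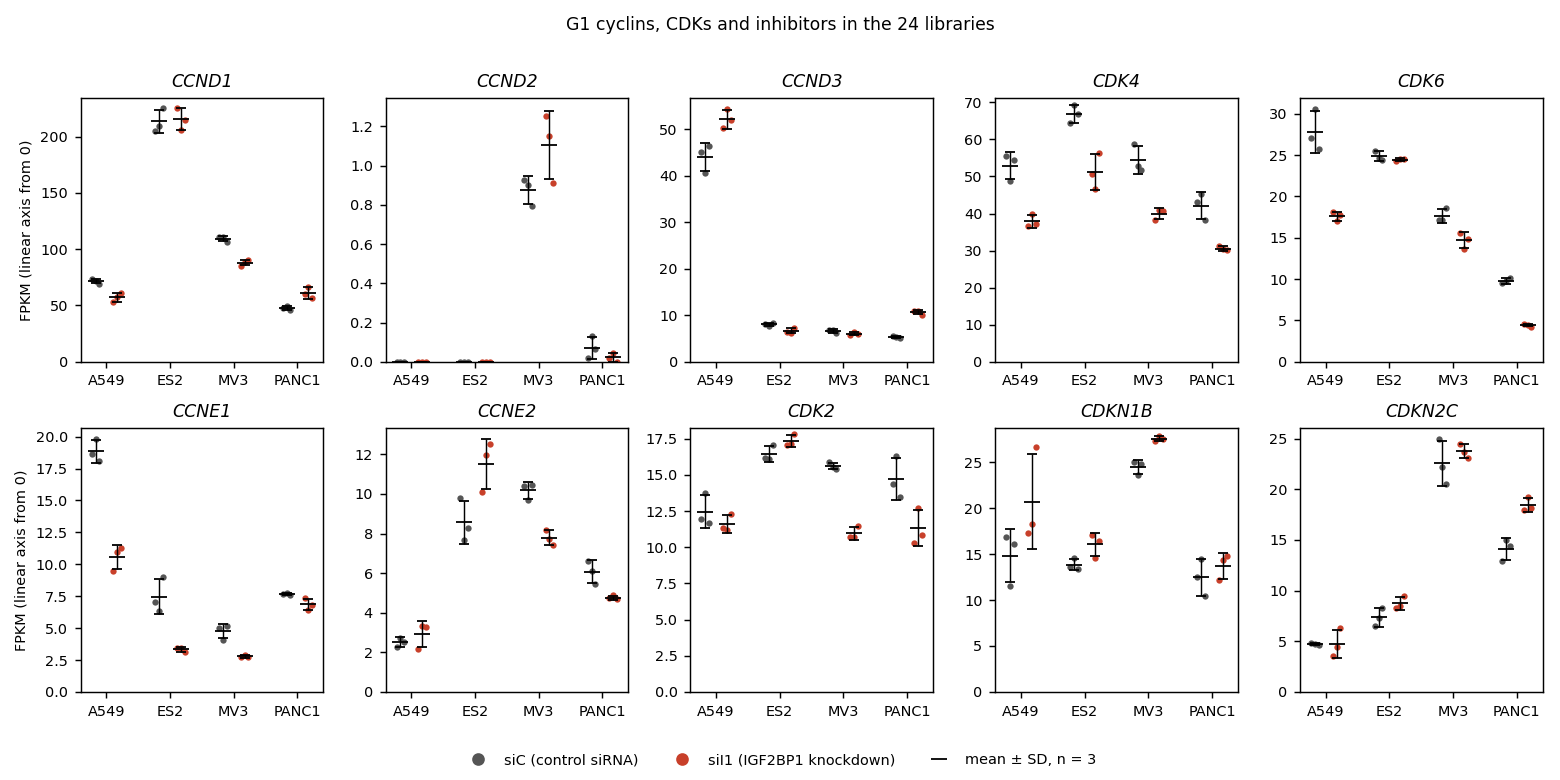
FPKM of each of the 10 genes (y axis, linear from 0) in each library, for the 4 lines on the x axis, with siC in grey, siI1 in red and mean ± SD (n = 3) in black. CDK4 lies lower in siI1 in all 4 lines, CDK6 is near one level in both arms of ES2 but drops below 5 FPKM in PANC1, and CCND2 is at 0 in A549 and ES2.

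The knockdown was tested in each line with limma on log2(FPKM + 0.5), over genes whose average reached 0.5 FPKM, and a gene was called at a Benjamini-Hochberg adjusted p under 0.05 over all genes of the line. In A549, CCND1, CDK4, CDK6 and CCNE1 fell, 4 of the 9 members tested, where 7.83% of all genes fell. No member rose there, beside 5.93% of all genes, with 1 rise at an unadjusted p under 0.05 (CCND3) and 2 by limma-voom on the reads recovered from the FPKM. In ES2, CDK4 and CCNE1 fell (2 of 9, all genes 13.0%) and no member rose (all genes 10.5%), with 2 rises at an unadjusted p under 0.05 (CCNE2 and CDKN1B) and 1 by limma-voom. In MV3, CCND1, CDK4, CDK6, CCNE1, CCNE2 and CDK2 fell (6 of 10, all genes 19.5%) and CDKN1B rose (1 of 10, all genes 16.3%). In PANC1, CDK4, CDK6, CCNE2 and CDK2 fell (4 of 9, all genes 13.4%), and CCND1, CCND3 and CDKN2C rose on the deposited scale (3 of 9, all genes 11.3%), though none of the 3 was called higher once libraries were set to the same sum of FPKM. Over the 37 tests of a member in a line, 16 gave a fall, 4 a rise and 17 no call. The median log2 fold change of the members was -0.09, 0.01, -0.28 and -0.15 in A549, ES2, MV3 and PANC1, beside -0.01, -0.02, 0.01 and -0.04 for all genes tested.

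Scaling bears on each rise in PANC1. There the 7SL RNA gene RN7SL2, a component of the signal recognition particle, averaged 340118 FPKM in siC and 670617 in siI1, which was 53.6% and 63.1% of the summed FPKM. Setting libraries to one sum of FPKM moved the median of all PANC1 genes by -0.64 (log2), against -0.03 in A549, 0.06 in ES2 and -0.01 in MV3. Setting libraries to one upper quartile moved the medians by 0.03 to 0.06. With the same sum, 8838 of 15846 PANC1 genes were called lower and 97 higher. Of 15 alternative fits, library removals included, 14 kept the PANC1 calls of CCND3 and CDKN2C and 11 that of CCND1. Which scaling is right was not settled. PANC1 cells were also harvested at 96 h and the others at 72 h, and time and line cannot be told apart.

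**Figure D2:**
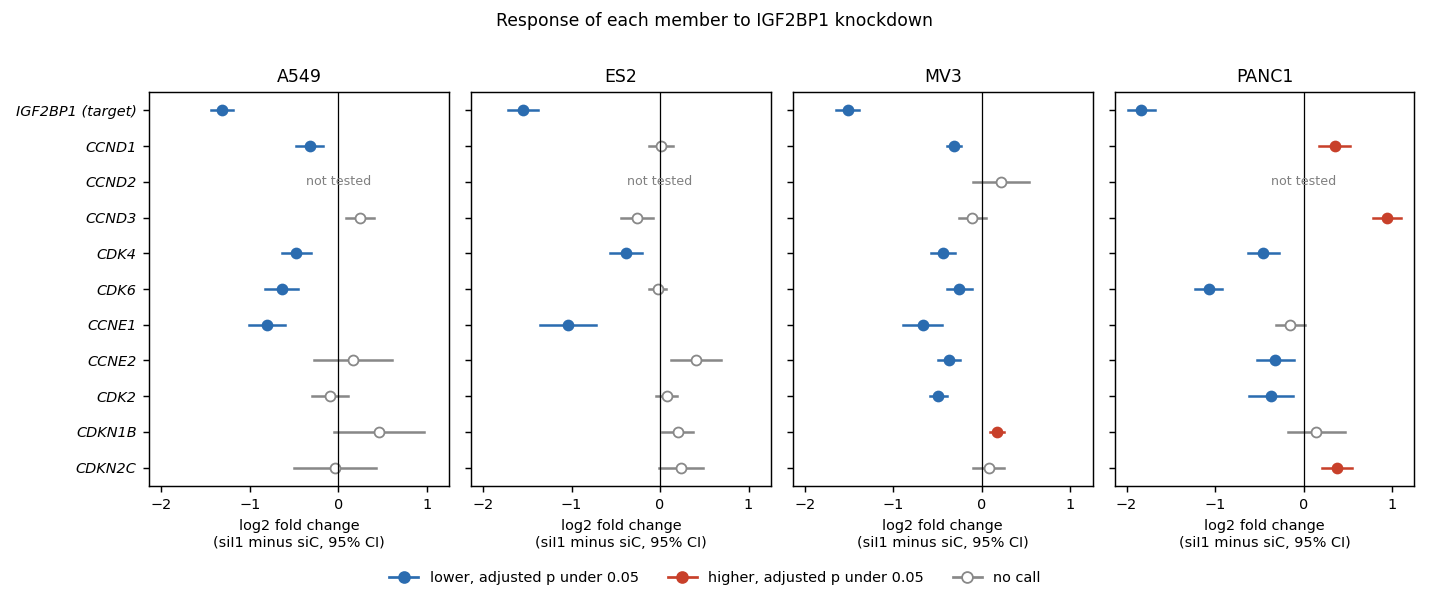
Log2 fold change of each member and of IGF2BP1 (x axis, siI1 minus siC, point with 95% confidence interval, 3 against 3 libraries) in each line, blue for falls and red for rises at an adjusted p under 0.05 and open grey for no call. CDK4 lies between -0.47 and -0.39 in all 4 lines, whereas CDK6 spans -1.07 to -0.02 and CCND3 -0.26 to 0.94. The red points of PANC1 hold for the deposited scaling and are not called with libraries set to the same sum of FPKM, where those of CCND1 and CDKN2C lie below 0.

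The kinases CDK4 and CDK6 are partners of the same cyclins. CDK4 fell in all 4 lines and CDK6 in A549, MV3 and PANC1. In A549 CDK4 stood at 55.6, 48.8 and 54.4 FPKM in siC and at 36.7, 39.9 and 37.1 in siI1 (log2 fold change -0.47 ± 0.07 (SE), adjusted p = 0.00798, limma). In ES2 it stood at 64.5, 69.2 and 66.9 against 50.6, 46.7 and 56.3 (log2 fold change -0.39 ± 0.07 (SE), adjusted p = 0.0131). In MV3 it was 58.6, 52.7 and 51.7 against 38.2, 41.0 and 40.6 (log2 fold change -0.44 ± 0.06 (SE), adjusted p = 0.00176). Every siI1 library was thus below every siC library in these 3 lines. The PANC1 libraries had 43.1, 45.2 and 38.2 against 31.1, 30.5 and 30.03 FPKM (log2 fold change -0.45 ± 0.07 (SE), adjusted p = 0.00685), again without overlap. The fall left 0.716, 0.766, 0.734 and 0.725 of the control mean in A549, ES2, MV3 and PANC1. CDK4 was the one member called lower in all 4 lines, and with the replicate number as a block the A549 call was lost (adjusted p = 0.0549).

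CDK6 showed its largest fall in PANC1, from 9.52, 9.72 and 10.2 FPKM to 4.51, 4.46 and 4.26 (log2 fold change -1.07 ± 0.06 (SE), adjusted p = 0.000610), which left 0.450 of the control level. In A549 it fell from 27.04, 30.6 and 25.7 to 18.1, 17.0 and 17.7 FPKM (log2 fold change -0.64 ± 0.08 (SE), adjusted p = 0.00460). In MV3 the values were 17.1, 17.2 and 18.6 against 15.5, 13.7 and 14.9 (log2 fold change -0.25 ± 0.06 (SE), adjusted p = 0.0166). The groups did not overlap in any of these 3 lines. The MV3 call was lost with libraries set to the same sum of FPKM (adjusted p = 0.0843) or the same upper quartile (0.0558). In ES2 the siC libraries had 25.5, 24.7 and 24.4 FPKM and siI1 libraries 24.2, 24.5 and 24.5, and the log2 fold change was -0.02 with a 95% interval of -0.12 to 0.07 (adjusted p = 0.711). The ES2 value turned to 0.05 with libraries set to the same sum of FPKM and to 0.01 with the same upper quartile. Control levels of CDK6 were 24.9 FPKM in ES2 and 27.8 in A549. The sum of CDK4 and CDK6 was lower in every siI1 library of each line, with means in FPKM of 80.7 ± 1.75 (siC) and 55.5 ± 1.22 (siI1) for A549, 91.7 ± 1.99 (siC) and 75.6 ± 4.86 (siI1) for ES2, 72.0 ± 3.28 (siC) and 54.6 ± 0.850 (siI1) for MV3 and 52.0 ± 3.31 (siC) and 35.0 ± 0.668 (siI1) for PANC1 (SD, n = 3).

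Among the D-type cyclins, CCND1 fell in A549 and MV3 and rose in PANC1 on the deposited scale, where with libraries set to the same sum of FPKM its change was -0.39 (adjusted p = 0.0380). In A549 the siC libraries had 73.8, 71.9 and 69.5 FPKM and the siI1 libraries 53.3, 57.5 and 61.2 (log2 fold change -0.32 ± 0.06 (SE), adjusted p = 0.0213). In MV3 they had 111, 111 and 106 against 85.4, 88.4 and 90.5 (log2 fold change -0.31 ± 0.03 (SE), adjusted p = 0.00101). In ES2, the line with the highest CCND1, 205, 209.7 and 225 stood against 225, 206 and 215, groups that overlapped (log2 fold change 0.01, 95% interval -0.12 to 0.15). In PANC1, 47.4, 49.4 and 45.9 stood against 60.1, 66.6 and 56.5 on the deposited scale (log2 fold change 0.35 ± 0.07 (SE), adjusted p = 0.0161). The A549 call did not hold without siC replicate 1, 2 or 3 or siI1 replicate 2 (adjusted p = 0.0825, 0.0671, 0.0549 and 0.0732) or with the replicate block (0.0893), nor did the PANC1 call without siC replicate 1 or 3 or siI1 replicate 1 (0.0622, 0.0509 and 0.0534).

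CCND3, the D-type cyclin best known from lymphoid cells, gave the largest rise of any member, in PANC1 on the deposited scale. There the siC libraries had 5.46, 5.35 and 5.13 FPKM and the siI1 libraries 11.02, 10.9 and 10.1, 2.01-fold on the deposited scale (log2 fold change 0.94 ± 0.06 (SE), adjusted p = 0.000857), and 0.24 on the log2 scale with libraries set to the same sum of FPKM (adjusted p = 0.257). In A549, where CCND3 was most abundant, 45.2, 40.7 and 46.4 stood against 50.3, 54.3 and 52.0, with every siI1 library above every siC library but no call (log2 fold change 0.24 ± 0.06 (SE), adjusted p = 0.0577). ES2 went the other way, with 8.13, 7.72 and 8.36 against 6.51, 6.22 and 7.24, every siI1 library below every siC library and also no call (log2 fold change -0.26 ± 0.07 (SE), adjusted p = 0.0503). Both values lay close to the threshold: with genes of at least 10 reads per library on average the adjusted p was 0.0313 in A549 and 0.0352 in ES2, and without ES2 siI1 replicate 3 it was 0.0451. In MV3, 6.84, 6.74 and 6.09 overlapped with 5.77, 6.34 and 6.06 (log2 fold change -0.11, 95% interval -0.25 to 0.04). CCND2 could be tested only in MV3, at 0.928, 0.900 and 0.796 FPKM in siC and 1.25, 1.15 and 0.911 in siI1 on 90 to 180 reads (log2 fold change 0.22, 95% interval -0.10 to 0.54, adjusted p = 0.246).

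As shares of the summed FPKM of the 3 D-type cyclins, CCND1 made up 61.9%, 96.4%, 93.7% and 89.8% in the controls of A549, ES2, MV3 and PANC1. The share of CCND3 averaged 38.1 ± 1.94 (siC) and 47.7 ± 1.53 (siI1) in A549, 5.60 ± 0.204 (siC) and 6.36 ± 0.227 (siI1) in MV3 and 10.0 ± 0.287 (siC) and 14.9 ± 0.758 (siI1) percent in PANC1, with every siI1 library above every siC library. In ES2 it averaged 3.65 ± 0.141 (siC) and 2.998 ± 0.232 (siI1) percent, with every siI1 library below every siC library. A share is taken within a library and does not move with its scaling. The summed level in FPKM averaged 116 ± 3.17 (siC) and 109.5 ± 5.20 (siI1) in A549 and 222 ± 10.8 (siC) and 222 ± 9.83 (siI1) in ES2, where the arms overlapped, and 117 ± 3.10 (siC) and 95.3 ± 2.56 (siI1) in MV3, where every siI1 library was lower. In PANC1 it averaged 52.9 ± 1.85 (siC) and 71.8 ± 5.48 (siI1) on the deposited scale.

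Of the E-type cyclins, CCNE1 fell in A549, ES2 and MV3 and CCNE2 in MV3 and PANC1. CCNE1 went in A549 from 18.7, 19.8 and 18.1 FPKM to 9.51, 10.95 and 11.3 (log2 fold change -0.81 ± 0.08 (SE), adjusted p = 0.00297). In ES2 it fell from 7.02, 6.34 and 8.97 to 3.46, 3.43 and 3.11 (log2 fold change -1.04 ± 0.13 (SE), adjusted p = 0.00297), which left 0.448 of the control level. In MV3 it fell from 5.03, 4.10 and 5.16 to 2.71, 2.92 and 2.76 (log2 fold change -0.67 ± 0.09 (SE), adjusted p = 0.00236). In PANC1, 7.68, 7.74 and 7.57 stood against 7.34, 6.46 and 6.79, without overlap but with no call (log2 fold change -0.15 ± 0.07 (SE), adjusted p = 0.162), and with libraries set to the same sum of FPKM the change was -0.86 (adjusted p = 0.00538). These values rest on 63 to 208 reads in a library.

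CCNE2 fell in MV3, from 10.4, 9.71 and 10.4 to 8.20, 7.74 and 7.44 FPKM (log2 fold change -0.37 ± 0.05 (SE), adjusted p = 0.00259), and in PANC1, from 6.63, 6.12 and 5.47 to 4.72, 4.88 and 4.69 (log2 fold change -0.32 ± 0.09 (SE), adjusted p = 0.0397). The PANC1 call was lost on leaving out siC replicate 1 or 2 or any siI1 library (adjusted p = 0.108 without siI1 replicate 1, 0.0878 without 2, 0.103 without 3, 0.120 without siC replicate 1 and 0.0847 without 2) and with the replicate block (0.0727). ES2 had 9.77, 7.66 and 8.29 in siC and 10.1, 11.96 and 12.5 in siI1, every siI1 library being higher, with a p just past the threshold (log2 fold change 0.41 ± 0.12 (SE), adjusted p = 0.0504). Without ES2 siC replicate 1 or siI1 replicate 1 the adjusted p was 0.0373 or 0.0416. In A549, 2.29, 2.74 and 2.54 overlapped with 2.19, 3.35 and 3.27 on 31 to 67 reads (log2 fold change 0.17, 95% interval -0.27 to 0.61).

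CDK2, the kinase of the E-type cyclins, fell in MV3 from 15.9, 15.6 and 15.4 FPKM to 10.7, 10.7 and 11.5 (log2 fold change -0.49 ± 0.04 (SE), adjusted p = 0.000381). In PANC1 it went from 14.4, 16.3 and 13.5 to 10.3, 12.7 and 10.9 (log2 fold change -0.37 ± 0.10 (SE), adjusted p = 0.0461), a call that was lost on leaving out any siC library or siI1 replicate 1 or 3 (adjusted p = 0.113, 0.0995, 0.0609, 0.134 and 0.126). In ES2, 16.2, 16.1 and 17.1 stood against 17.1, 17.1 and 17.8, every siI1 library being higher before rounding (log2 fold change 0.08, 95% interval -0.04 to 0.19). In A549, 11.96, 13.7 and 11.7 overlapped with 11.3, 11.2 and 12.3 (log2 fold change -0.09, 95% interval -0.30 to 0.11). The lines in which CDK2 and CCNE2 were called lower were thus the same 2.

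CDKN1B and CDKN2C were called lower in no line by limma or by limma-voom, and of the 8 tests the one with a negative value had an unadjusted p of 0.859 (CDKN2C in A549). With libraries set to the same sum of FPKM, CDKN1B in PANC1 was called lower. CDKN1B rose in MV3, from 25.0, 23.6 and 24.8 FPKM to 27.3, 27.8 and 27.5 (log2 fold change 0.17 ± 0.03 (SE), adjusted p = 0.00858), a narrow shift that was not called with libraries set to the same sum of FPKM (adjusted p = 0.0836). In ES2, 13.6, 14.6 and 13.4 stood against 17.1, 14.6 and 16.4 with every siI1 library higher before rounding but no call (log2 fold change 0.20 ± 0.07 (SE), adjusted p = 0.0979), and without ES2 siI1 replicate 2 the adjusted p was 0.0459. In A549 the siI1 libraries were again all higher, at 17.2, 18.2 and 26.6 against 16.8, 11.5 and 16.1, but siI1 replicate 3 lay far above the other two (log2 fold change 0.46 ± 0.21 (SE), adjusted p = 0.214). In PANC1, 12.5, 14.5 and 10.4 overlapped with 12.1, 14.4 and 14.7, with a log2 fold change of 0.14 on the deposited scale (adjusted p = 0.479) and of -0.58 with libraries set to the same sum of FPKM (0.0108). CDKN2C was called in PANC1 alone, from 12.9, 15.01 and 14.4 to 18.0, 19.2 and 18.1 FPKM on the deposited scale (log2 fold change 0.38 ± 0.07 (SE), adjusted p = 0.0126) and -0.36 with the same sum of FPKM (adjusted p = 0.0878). Elsewhere its arms overlapped, with 25.0, 22.2 and 20.5 against 24.4, 23.7 and 23.1 in MV3, 6.48, 7.30 and 8.31 against 8.29, 8.44 and 9.45 in ES2 and 4.88, 4.77 and 4.67 against 3.56, 4.44 and 6.29 in A549, and the 95% intervals of the log2 fold change were -0.09 to 0.25, -0.01 to 0.48 and -0.50 to 0.43.

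Counting libraries that did not overlap, every siI1 library was below every siC library for 4 of 9 members in A549, 3 of 9 in ES2, 6 of 10 in MV3 and 5 of 9 in PANC1, beside 18.5%, 22.6%, 25.9% and 23.8% of all genes tested. Every siI1 library was above for 2 of 9, 3 of 9, 1 of 10 and 3 of 9 members, beside 15.4%, 19.5%, 24.5% and 19.4% of all genes. The upward counts in A549, ES2 and PANC1 are 2 or 3 genes each, and the one in MV3 is below the share of all genes.

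Ratios between members within a library do not depend on how the library was scaled. The ratio of CCNE2 to CCNE1 averaged 0.134 ± 0.00989 (siC) and 0.275 ± 0.0398 (siI1) in A549, 1.18 ± 0.236 (siC) and 3.48 ± 0.554 (siI1) in ES2 and 2.15 ± 0.187 (siC) and 2.79 ± 0.202 (siI1) in MV3 (SD, n = 3), with every siI1 library higher, while in PANC1 (0.792 ± 0.0703 (siC) and 0.697 ± 0.0564 (siI1)) the arms overlapped. In ES2 the 2 cyclins were close to equal in controls, and CCNE2 was 2.92 to 4.02 times CCNE1 after knockdown. The ratio of CDK6 to CDK4 moved in opposite directions in ES2, with 0.372 ± 0.0209 (siC) and 0.480 ± 0.0456 (siI1), and in PANC1, with 0.234 ± 0.0282 (siC) and 0.144 ± 0.00208 (siI1), each without overlap, and overlapped in A549 and MV3.

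Inhibitors were also set against the kinases they bind. CDKN2C relative to the sum of CDK4 and CDK6 was higher in every siI1 library of all 4 lines, averaging 0.0592 ± 0.000869 (siC) and 0.0859 ± 0.0258 (siI1) in A549, 0.0803 ± 0.00983 (siC) and 0.115 ± 0.00408 (siI1) in ES2, 0.313 ± 0.0192 (siC) and 0.435 ± 0.0192 (siI1) in MV3 and 0.273 ± 0.0262 (siC) and 0.528 ± 0.0224 (siI1) in PANC1. In A549 the 3 siI1 libraries ranged from 0.0650 to 0.115, a wide spread. The sum of CDK4 and CDK6 was itself lower in every siI1 library. CDKN2C overlapped between the arms without a call in A549, ES2 and MV3. Its siI1 mean was 0.998, 1.19 and 1.05 of the siC mean there, beside 0.688, 0.824 and 0.759 for the sum of the kinases. In A549 and MV3 the ratio thus largely follows the kinases, whereas in ES2 both means moved. CDKN1B relative to CDK2 averaged 1.21 ± 0.320 (siC) and 1.77 ± 0.341 (siI1) in A549, 1.57 ± 0.0495 (siC) and 2.51 ± 0.107 (siI1) in MV3 and 0.842 ± 0.0614 (siC) and 1.22 ± 0.119 (siI1) in PANC1, without overlap, and overlapped in ES2 (0.844 ± 0.0602 (siC) and 0.925 ± 0.0745 (siI1)). These ratios are descriptions of mRNA levels and were not tested.

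**Figure D3:**
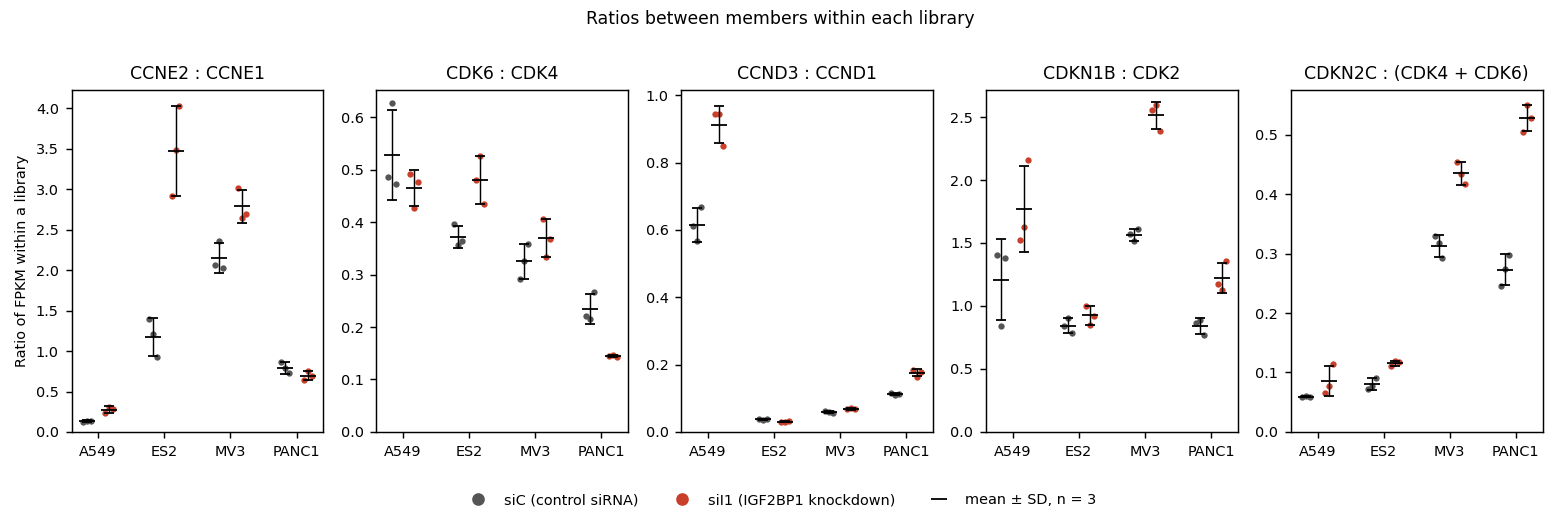
Ratios of FPKM within a library (y axis, linear from 0) for 5 pairs of members in the 4 lines (x axis), with siC in grey, siI1 in red and mean ± SD (n = 3) in black. CDKN2C relative to CDK4 plus CDK6 is higher in every siI1 library of each line, whereas CDK6 to CDK4 is higher in ES2 and lower in PANC1. The sum of CDK4 and CDK6 is lower in each line, and CDKN2C itself overlaps between the arms in A549, ES2 and MV3.

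Whether the response differed between lines was tested in 1 limma fit over the 24 libraries, as an F test of the differences between the 4 knockdown effects, for the 12816 genes with at least 0.5 FPKM in every line. Of the 9 members tested, 6 differed, beside 45.0% of all genes: CCND3 (adjusted p = 2.98e-08), CDK6 (6.24e-08), CCND1 (6.60e-06), CCNE1 (0.000350), CDK2 (0.000941) and CCNE2 (0.00170). For CDK4 the adjusted p was 0.871, for CDKN1B 0.505 and for CDKN2C 0.228. The 6 differences between 2 lines in the CDK4 effect had 95% intervals that lay between -0.30 and 0.28 on the log2 scale. With libraries set to the same sum of FPKM, which lowers all PANC1 values, 8966 of the 12816 genes differed. The effects on CDK4 (adjusted p = 1.34e-05), CDKN1B (0.000176) and CDKN2C (0.0314) then did differ and that on CCNE1 was not called (0.582). Without siI1 replicate 3 of every line the effect on CDKN2C also differed (0.0229).

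Between pairs of lines, the change of CDK6 was lower in PANC1 than in ES2 by 1.04 (ES2 minus PANC1, 95% interval 0.88 to 1.21, adjusted p = 2.65e-08), and the effects on CDK6 were called different in 5 of 6 pairs, ES2 and MV3 being the exception (0.0821). CCND3 differed in 5 of 6 pairs, with MV3 minus PANC1 at -1.05 (95% interval -1.23 to -0.86, adjusted p = 3.24e-07) and A549 minus ES2 at 0.51 (95% interval 0.32 to 0.69, adjusted p = 0.000386). CCND1 differed in 5 of 6, where A549 and MV3 gave a difference of -0.01 (95% interval -0.18 to 0.16, adjusted p = 0.953). For CCNE2, ES2 minus MV3 was 0.77 (95% interval 0.42 to 1.12, adjusted p = 0.00474), and 4 of 6 pairs differed. For CCNE1 the 3 pairs that differed were those with PANC1, and for CDK2 they were A549 with MV3, ES2 with MV3 and ES2 with PANC1. Each pair shares its lines with others, and the 6 pairs are not independent. All pairs were compared on the deposited scale alone, and those with PANC1 rest on the scaling described above. Of all 12816 genes, 21.7% differed between A549 and ES2, 18.7% between A549 and MV3, 26.5% between A549 and PANC1, 9.78% between ES2 and MV3, 32.7% between ES2 and PANC1 and 22.1% between MV3 and PANC1.

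Averaged over the 4 lines, CCNE1 fell by the largest amount, -0.67 ± 0.05 (SE, adjusted p = 1.62e-09), followed by CDK6 with -0.50 ± 0.03 (SE, adjusted p = 4.29e-11), CDK4 with -0.44 ± 0.04 (SE, adjusted p = 5.69e-09) and CDK2 with -0.22 ± 0.04 (SE, adjusted p = 6.81e-05). These were 4 of 9 members, beside 28.1% of all genes called lower on average. The SE and p of an average measure the spread of libraries within groups and not the spread between the 4 lines. CDKN1B with 0.24 ± 0.07 (SE, adjusted p = 0.00935), CCND3 with 0.20 ± 0.03 (SE, adjusted p = 2.05e-05) and CDKN2C with 0.16 ± 0.06 (SE, adjusted p = 0.0410) were called higher on average on the deposited scale (3 of 9, all genes 20.5%), and with libraries set to the same sum of FPKM none of the 3 was called, at 0.07, 0.03 and -0.01. CCND3 had positive values in PANC1 and A549 and negative ones in ES2 and MV3. Leaving out siI1 replicate 3 of every line took the CDKN1B call (adjusted p = 0.0554), and the CDKN2C call was lost on leaving out any numbered replicate but siI1 replicate 1 (adjusted p = 0.0774 to 0.114). CCND1 (-0.07 ± 0.03 (SE, adjusted p = 0.0661)) and CCNE2 (-0.03 ± 0.06 (SE, adjusted p = 0.744)) were not called on average, and each was called lower in 2 lines and had a positive value in the other two, for CCND1 with the limits of scaling in PANC1 given above.

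The rest of the pathway was described by lists. Of the pocket proteins, E2Fs and DP partners, which act just downstream of the G1 kinases, 3, 4, 8 and 5 of 10 fell in A549, ES2, MV3 and PANC1, where 7.83%, 13.0%, 19.5% and 13.4% of all genes fell. In each line 1 of 10 rose (TFDP1 in A549 and PANC1, RBL2 in ES2 and TFDP2 in MV3), which is near or below the 5.93%, 10.5%, 16.3% and 11.3% of all genes that rose. The rise of TFDP1, an E2F partner, was 0.28 in A549 and 0.24 in PANC1 on the deposited scale, and 0.25 (adjusted p = 0.0980) and -0.50 (0.0247) with libraries set to the same sum of FPKM. E2F1 and E2F2, activators of S-phase genes, fell in all 4 lines, E2F1 by log2 fold changes of -0.77, -0.36, -0.87 and -0.46 and E2F2 by -1.11, -0.53, -0.76 and -0.90. RB1, the retinoblastoma protein, fell in MV3 (-0.21) and was not called elsewhere. RBL1 (p107) fell in MV3 (-0.69) and PANC1 (-0.96), from 6.19 to 2.94 FPKM in the latter.

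Among cyclins of S and G2 phase and their kinase CDK1, 5 of 5 fell in MV3 and in PANC1, 2 in ES2 (CCNB1 and CDK1) and 1 in A549 (CDK1), where 19.5%, 13.4%, 13.0% and 7.83% of all genes fell. CDK1 changed by -0.40, -0.35, -0.49 and -0.60, and CCNA2, the S-phase cyclin, by -0.31 in MV3 and -0.86 in PANC1. The median of this list was -0.08, -0.11, -0.46 and -0.60 in the 4 lines, beside the medians of all genes given above. The proliferation markers MKI67 and PCNA moved beside these results: both fell in MV3 (from 18.5 to 13.7 and 151 to 104 FPKM) and PANC1 (from 24.4 to 13.0 and 108 to 75.9), 1 of the 2 fell in A549, and neither was called in ES2 (from 29.3 to 18.8 and 147 to 133). The part of a changed share of cycling cells in the values of CDK2, CCNE1 and CCNE2 was not tested.

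Of 7 genes that set CDK activity, 1, 2, 5 and 3 fell in A549, ES2, MV3 and PANC1, beside 7.83%, 13.0%, 19.5% and 13.4% of all genes. CDC25A, a phosphatase that activates CDK2, fell in ES2 (-0.62), MV3 (-0.96) and PANC1 (-0.31), and PKMYT1, an inhibitory kinase, fell in the same lines (-0.69, -0.75 and -0.59). WEE1, also an inhibitory kinase, rose in PANC1 on the deposited scale (0.33) and had -0.40 with the same sum of FPKM. The CDK-activating kinase CDK7 was called in none (lowest adjusted p = 0.208, MV3). Of 9 genes that turn over p27 and the G1 cyclins, 1, 3, 3 and 3 fell, beside the same shares of all genes, and the 1 of 9 in A549 is near its share. SKP1, a subunit of the same ligase as SKP2, rose in MV3 (0.17, adjusted p = 0.0223), a call lost with libraries set to the same sum of FPKM (0.111). RBX1 and AMBRA1 rose in PANC1 on the deposited scale (0.31 and 0.23), with -0.43 and -0.47 under the same sum of FPKM. SKP2, the F-box protein that marks p27 for degradation, was called lower in every line (-0.62, -0.38, -0.47 and -0.47), and its cofactor CKS1B fell in ES2 and MV3. FBXW7, which marks cyclin E for degradation, was not called in any line (lowest adjusted p = 0.123, MV3).

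Of the other CDK inhibitors, CDKN1A (p21) fell in A549 from 94.9 to 70.4 FPKM (-0.43, adjusted p = 0.00495), in ES2 from 2.69 to 1.18 (-0.94, 0.00581) and in MV3 from 2.38 to 1.43 (-0.57, 0.00582). The PANC1 value was -0.35 (adjusted p = 0.101). CDKN2A (p16 and ARF) averaged 39.9 FPKM in ES2 and 11.2 in MV3 controls, but 0.0189 in A549 and 0.0543 in PANC1, on at most 6 reads in a library. In MV3 it rose (0.20, adjusted p = 0.0166) and CDKN2D (p19) fell (-0.39, 0.0241). CDKN2B (p15) was at 0 in every A549 and PANC1 library and rose in ES2 from 2.13 to 3.92 FPKM (0.77, adjusted p = 0.0254). CDKN2C was thus the most abundant INK4 mRNA in A549, MV3 and PANC1 controls (4.77, 22.5 and 14.1 FPKM), beside 0.641, 7.79 and 3.69 for CDKN2D.

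**Figure D4:**
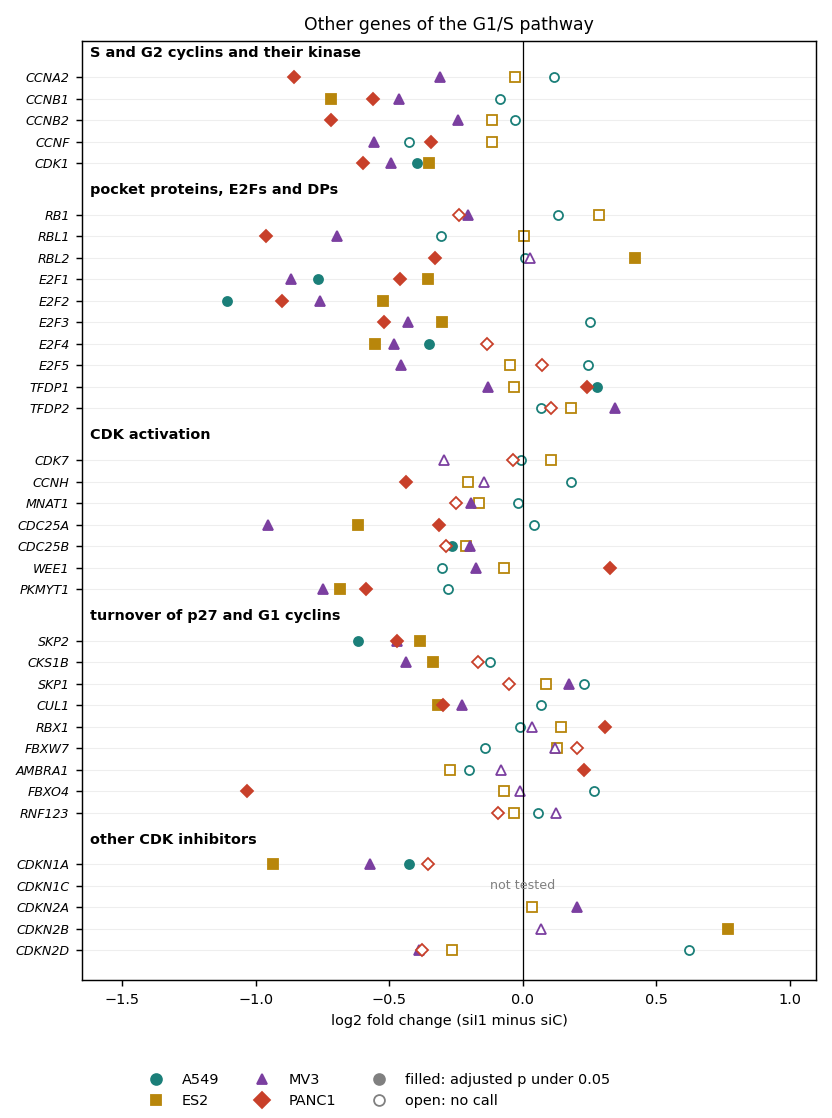
Log2 fold change (x axis, siI1 minus siC, deposited scale) of the other pathway genes, grouped by list, with 1 symbol per line, filled where the adjusted p was under 0.05 and open where it was not. E2F1, E2F2, SKP2 and CDK1 are filled and below 0 in all 4 lines, and the S and G2 cyclins are filled in MV3 and PANC1. Of the filled PANC1 symbols above 0, TFDP1, RBX1, AMBRA1 and WEE1 lie below 0 with libraries set to the same sum of FPKM.

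Genes whose pattern was most like a member's were found by Pearson's r of log2(FPKM + 0.5) over the 24 libraries, with each line centred on its siC mean, among 8903 protein-coding genes. All points share the same libraries, and r is a description. For CDK4 they were HDLBP (0.96), POLR2D (0.95), HIST1H1D (0.95). For CDK6 they were MDM2 (0.98), TMEM245 (0.97), TBL1XR1 (0.97). For CCNE1 they were STIP1 (0.96), PNP (0.95), TPM3 (0.95), for CDK2 DSN1 (0.92), SERBP1 (0.91), MCM2 (0.91), for CCND3 RANGAP1 (0.99), RACK1 (0.96), EIF6 (0.95), for CDKN1B CRAT (0.84), BCAS4 (0.82), IRF2BPL (0.81) and for CDKN2C RNF2 (0.87), C1orf122 (0.82), NDUFB4 (0.80). Between members, r was highest for CCNE2 with CDK2 (0.74) and CDK4 with CCNE1 (0.72). The lowest r was that of CCND3 with CDK6 (-0.89): PANC1 had the largest rise of CCND3 on the deposited scale and the largest fall of CDK6, and ES2 a lower CCND3 and a CDK6 near its control level.

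On hg38, CCND1 lies at chr11:69641156-69654474 and CCNE1 at chr19:29811991-29824312 on the plus strand, CDK4 at chr12:57747727-57756013, CDK6 at chr7:92604921-92836573 and CCND3 at chr6:41934934-42050357 on the minus strand. All members except CCNE1 overlap an annotated gene on the other strand. The library kit keeps strand, but the strand setting of the counting is not given in the sources used here, so reads of such pairs may not be separated. Beside CDK4, TSPAN31 averaged 3.96 FPKM in A549 and 1.43 in MV3 controls, and its log2 fold changes were 0.11, 0.25, 0.49 and -0.02. INTS8, beside CCNE2, changed by -0.11, 0.17, 0.07 and 0.06, and PMEL, beside CDK2, stayed at or under 0.257 FPKM in the group means of every line.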

How the data were processed

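The authors trimmed reads with Cutadapt 1.14, aligned them to hg38 with HISAT2 2.1.0 and SAMtools 1.5, counted them per gene with featureCounts 1.5.3 and an Ensembl annotation, and normalised them by TMM in edgeR 3.30.3. The deposited values are not named by unit in the tables. The authors' values were taken as FPKM, that is TMM-normalised reads per gene length as deposited, since each value times the listed gene length was a whole multiple of 1 step per library (tolerance 0.01). The tables also hold the authors' own log2 fold changes, p-values and FDR, which were not used. Replicate pairs were compared by chi-square statistics over genes, and all differed by more than sampling noise, so that all 24 were kept as separate libraries.

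From these values, log2(FPKM + 0.5) was tested with limma 3.58.1 in R 4.3.3 (linear model, moderated with a trend, two-sided), for genes whose average in a line reached 0.5 FPKM. P-values were adjusted after Benjamini and Hochberg across every gene tested, and calls were made under 0.05. Fold changes on this scale understate those of low genes. Effects were compared between lines in 1 fit of all 24 libraries, where the differences between pairs of lines were added after the F tests were seen. Genes named are the members, IGF2BP1, the genes of the pathway and marker lists, the genes most like each member called on average, and, chosen after their values were seen, RN7SL2 and genes overlapping a member on the other strand. The members and lists were chosen with earlier results of these data known. Matches in 3'UTRs and promoters were read from the reference of build hg38.

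Depth ran from 3105215 to 20082702 reads per library, recovered from the FPKM, and low members in A549 rest on few reads. The tests were tried on simulated data with known changes. Alternatives were pseudocounts of 0.1 and 1, no filter, equal sums, equal upper quartiles, limma-voom on recovered reads, a joint fit, a replicate block, each library left out and, added after seeing the data, a minimum of 10 reads per library on average. In the fit of all lines, each numbered replicate of an arm was left out of every line at once.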

Additional observations from a re-analysis of the deposited data

Results flagged for a closer look

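The effect of IGF2BP1 knockdown differed between the 4 lines for 6 members in the limma F test over 24 libraries, with adjusted p of 2.98e-08 for CCND3, 6.24e-08 for CDK6, 6.60e-06 for CCND1, 0.000350 for CCNE1, 0.000941 for CDK2 and 0.00170 for CCNE2. Over all genes 45.0% passed the same test. Which members differed depended on the scaling. With libraries set to the same sum of FPKM, CCNE1 was not called and CDK4, CDKN1B and CDKN2C were. PANC1 was harvested later than the other lines, and line and harvest time cannot be told apart in any difference that involves it.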

How the results depend on the processing

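Over the planned and added alternatives other than leaving out a library, 300 values of a member in a line kept their direction and their side of the threshold, 15 passed it, 11 no longer passed it and 6 changed sign. The number of members called lower in A549, 4 in the fit reported above, was 2 with the replicate block, and that in PANC1, also 4, was 2 with no filter on low values and 7 with libraries set to the same sum of FPKM. The number called higher in A549 (0) was 1 with the same upper quartile and with at least 10 reads, and 2 with limma-voom and in the joint fit. That in ES2 (0) was 1 with the same sum, the same upper quartile, limma-voom, at least 10 reads and the joint fit. That in MV3 (1) was 0 with the same sum and in the joint fit, that in PANC1 (3) was 0 with the same sum, and that on average over lines (3) was 0 with the same sum. With libraries set to the same sum, the PANC1 values of CCND1, CDKN1B and CDKN2C turned to -0.39, -0.58 and -0.36, CDK6 in ES2 to 0.0456 and the mean of CDKN2C over lines to -0.0139. With the same upper quartile, CDK6 in ES2 turned to 0.0144, CDKN2C in A549 to 0.00543 and the mean of CCNE2 to 0.0178. The share of RN7SL2 in the sum is given above, and the cause was not tested.

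Leaving out 1 library of a line gave 2 to 3 members lower in PANC1 and 0 to 1 higher in ES2. CCND1 in ES2 then ranged from -0.0196 to 0.0528 and CDKN2C in A549 from -0.24 to 0.14. Leaving out 1 numbered replicate of an arm in every line gave 1 to 3 members higher on average. The mean of CCNE2 then ranged from -0.0594 to 0.0301. Replicate numbers did not pair the samples: same-numbered libraries did not deviate together in every pair of any line. With the replicate number as a block, 2, 2, 6 and 3 members were called lower and 0, 0, 1 and 3 higher in A549, ES2, MV3 and PANC1, 6 differed between lines, and 4 were lower and 3 higher on average. The calls lost were CCND1 (adjusted p = 0.0893) and CDK4 (0.0549) in A549 and CCNE2 in PANC1 (0.0727).

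Over all genes, 1441 fell and 1092 rose in A549, against 622 and 379 with the block, 2339 and 1837 with limma-voom and 2355 and 1831 in the joint fit. In ES2, 2201 fell and 1772 rose, against 1443 and 1169 with the block and 1419 and 1779 with the same sum. In MV3, 3190 fell and 2663 rose, against 2486 and 3487 with the same upper quartile and 2240 and 1337 in the joint fit. In PANC1, 2131 fell and 1796 rose, against 8838 and 97 with the same sum. Depth is low for CCNE2 and CDKN2C in A549, with 31 to 74 reads per library, and CCND2 was not tested in A549, ES2 and PANC1, with at most 8 reads.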
